A study of Mus musculus with 14 samples.

Results

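Collagen and laminin chains are the genes described here. They are the protein-coding genes of the GENCODE M21 annotation whose symbol is Col or Lam followed by a chain name, and no expression value entered that choice. The rule found 55 of 53239 gene symbols, 44 collagens and 11 laminins, with 275 annotated transcripts between them, of which 128 are protein coding. By role they comprised 6 chains of collagen IV, 5 laminin alpha, 3 laminin beta and 3 laminin gamma chains, 4 collagens of the basement membrane zone, 6 chains of collagen VI, 11 fibrillar, 9 fibril-associated, 3 short-chain and 4 transmembrane collagens, and Col26a1.

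Laminins are cross-shaped trimers of an alpha, a beta and a gamma chain, and collagen IV chains wind into a triple helix and join into a net. Together they form the basement membrane on which Sertoli cells and spermatogonia rest in the seminiferous tubule, with peritubular myoid cells on its outer side. Fibrillar collagens and collagen VI lie outside that membrane, in the tubule wall and the interstitium, and in the testis these chains are known mainly as products of somatic cells.

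Testes of 4 Adad2 mutant (Adad2 M/M, MUT) and 3 wild type (Adad2 +/+, WT) C57BL/6 mice were collected at 21 days postpartum (dpp). All 7 mice carried Stra8-iCre and Rpl22-HA (RiboTag), each heterozygous. In this model the Cre transgene, driven by the Stra8 promoter in differentiating germ cells, switches on an HA tag on a large ribosomal subunit protein. RNA pulled down with the tag (IP) is therefore meant to come from ribosomes of those cells, whereas total RNA of the same testis (input) comes from every testicular cell. Values per animal are given for MUT animals 12, 69, 93 and 94, in that order, and then for WT animals 17, 121 and 140.

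The 14 libraries held 22987974 to 30871330 expected counts each. Adad2 itself had 191 to 329 counts in MUT IPs, against 2411 to 2815 in WT IPs, and 139 to 329 counts in MUT inputs, against 637 to 732 in WT inputs. MUT inputs 12 and 69 stood apart, with 16024 and 15438 gene symbols above 0, against 21334 and 27002 in the other MUT inputs and 25319 to 27791 in WT inputs. MUT IPs had 12744 to 15024 symbols above 0, against 19655 to 21880 in WT IPs. For this reason the comparisons were also run without animals 12 and 69. Germ cell markers summed to 4909 to 5277 CPM (counts scaled to library size) in MUT IPs, against 2368 to 2864 CPM in MUT inputs, and to 6124 to 7297 CPM in WT IPs, against 2473 to 2985 CPM in WT inputs. By the fits given further on, 6 of the 8 markers were higher in IP and 2 lower in MUT, and 7 were higher and 1 lower in WT.

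Collagen and laminin transcripts took a larger share of every MUT input than of any WT input. They made up 0.182%, 0.194%, 0.233% and 0.258% of the counts in MUT inputs, against 0.139%, 0.146% and 0.151% in WT inputs. In IPs they made up 0.0399%, 0.0434%, 0.0617% and 0.0605% of the counts in MUT, against 0.0596%, 0.0355% and 0.0435% in WT, and the genotypes overlapped.

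Levels were compared between genes in TPM, which are scaled to transcript length. Col3a1, the single chain of collagen III, led the members in input with a mean level of 35.8 TPM in MUT and 30.1 TPM in WT. It was followed by Col4a1 with 31.1 TPM in MUT and 20.3 TPM in WT, Col1a1 with 27.7 TPM in MUT and 22.4 TPM in WT and Col1a2 with 26.2 TPM in MUT and 15.5 TPM in WT. That is the order in MUT, and in WT Col1a1 was above Col4a1. Animals differed widely, with Col3a1 at 23.7 to 47.0 TPM and Col4a1 at 17.0 to 44.9 TPM in MUT inputs, so the ranges of these 4 genes overlapped. Lamb2 was the most abundant laminin chain, at 18.4 TPM in MUT and 14.8 TPM in WT, followed by Lamc3 at 11.2 TPM in MUT and 8.74 TPM in WT and Lamb1 at 9.87 TPM in MUT and 7.22 TPM in WT. Collagens held 81.5 ± 2.95% of the members' TPM in MUT inputs and 80.7 ± 1.496% in WT inputs (SD, n = 4 and 3).

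The promoter of the leading basement membrane pair is shown because the 2 genes start within it and their IP levels, given further on, did not move together. Col4a1 and Col4a2, the collagen IV chains of nearly all basement membranes, lie head to head on chromosome 8 of GRCm38. Col4a1 runs on the minus strand at chr8:11198423-11312826 and Col4a2 on the plus strand at chr8:11312805-11449287, so their starts are 21 bases apart and the annotated genes overlap at that end. The RefSeq windows (GRCm38.p6) run from 250 bases before the start to 50 after it, 5′ to 3′ on each gene's strand. Capitals mark the 78 bases that both windows contain, read on opposite strands.
Col4a1 (chr8:11312777-11313076, minus strand): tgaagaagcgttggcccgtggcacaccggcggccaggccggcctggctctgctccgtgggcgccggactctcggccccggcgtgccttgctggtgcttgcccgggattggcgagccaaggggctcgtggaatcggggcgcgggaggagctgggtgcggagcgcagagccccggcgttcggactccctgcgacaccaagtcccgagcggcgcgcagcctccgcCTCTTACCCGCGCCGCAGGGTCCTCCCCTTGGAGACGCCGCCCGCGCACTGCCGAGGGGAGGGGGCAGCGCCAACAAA
Col4a2 (chr8:11312555-11312854, plus strand): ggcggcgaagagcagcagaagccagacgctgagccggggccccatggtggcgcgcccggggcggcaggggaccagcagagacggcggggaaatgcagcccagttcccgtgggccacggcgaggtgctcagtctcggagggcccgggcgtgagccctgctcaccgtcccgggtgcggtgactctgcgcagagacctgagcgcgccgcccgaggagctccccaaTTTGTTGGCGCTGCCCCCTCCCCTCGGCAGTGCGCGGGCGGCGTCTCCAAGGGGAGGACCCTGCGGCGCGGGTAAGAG
The table held windows for 40 of the 55 members, 44 in all. Searched on both strands, the letters GGGCGG were in 59.1% of the members' windows and in 35.7% of all 32851 windows of that length, CCAAT in 31.8% and 37.4%, and TATAAA in 11.4% and 13.6%. Both windows printed here hold GGGCGG and CCAAT and neither holds TATAAA.

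Input was compared between genotypes first, which asks whether matrix transcripts of the whole testis differ in the mutant. Most members had a fitted fold change above 0 in MUT, but none passed the test across all genes. Of the 55 members, 52 passed the filter on low counts, while Col9a1, Col19a1 and Col24a1 did not. Of the 52, 42 had a fitted log2 fold change above 0, and their median was 0.44 (interquartile range 0.12 to 0.66), beside -0.18 over all 36572 features tested and -0.10 over annotated genes. edgeR called 0 members at an adjusted p under 0.05, where it called 0.00547% of features higher and 0.00273% lower. Without adjustment, 12 members were higher and 0 lower at p under 0.05, beside 1.6% and 4.76% of features. DESeq2 called 10 higher and 0 lower, beside 1% and 2.25% of its features. At the same unadjusted threshold limma on log2(TPM + 0.1) found 3 members higher and 0 lower, beside 0.952% and 14% of features, with 31 of 52 above 0 and a median of 0.18 beside -0.57 over all features. On log2(TPM + 1) it again found 3 higher and 0 lower, beside 0.867% and 15% of features, with 36 above 0 and a median of 0.15 beside -0.21. In bulk testis, more cells of a type and more RNA per cell cannot be told apart. Each p-value sets a fold change against the variation between animals, which the fits estimate with help from all features.

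**Figure D1:**
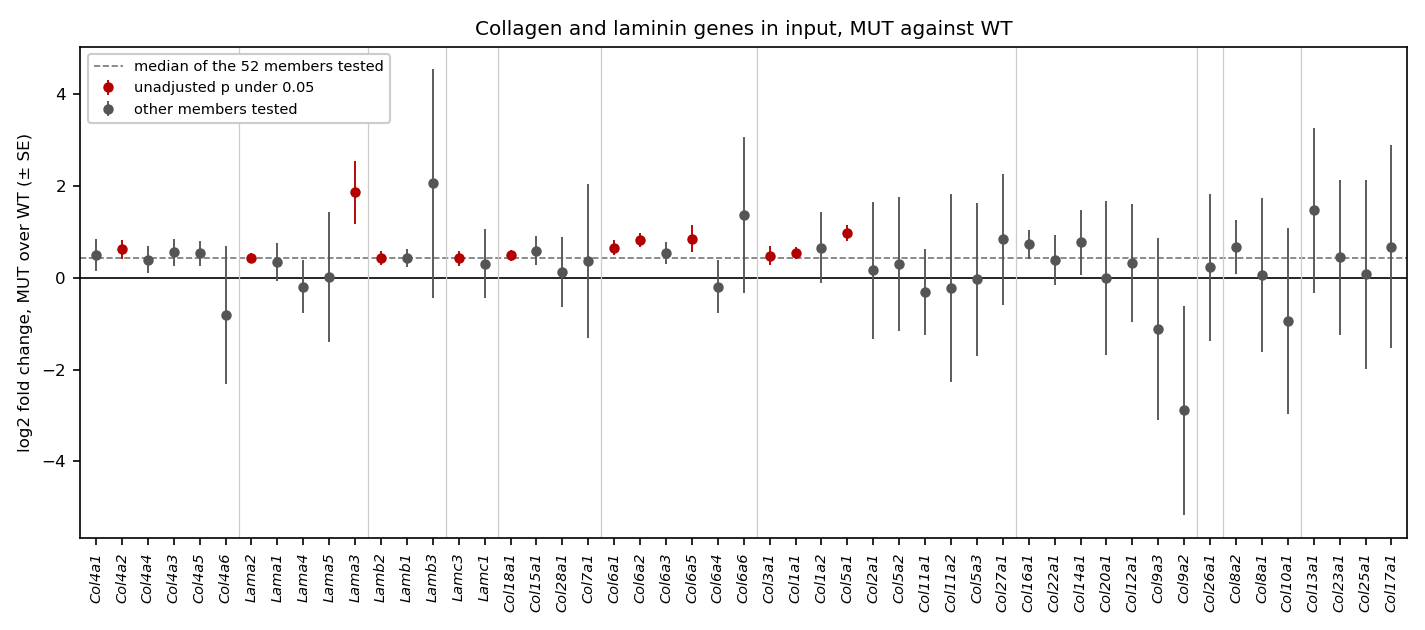
Log2 fold change in input (MUT over WT) of the members tested, by class, with the SE worked back from the edgeR F statistic as error bars. Members at an unadjusted p under 0.05 are in red. Of the 52 members tested, 1 of which is not drawn, 42 had a fold change above 0, and their median, the dashed line, is 0.44.

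For 11 members every MUT input was above every WT input, and for 0 members every MUT input was below, beside 2.58% and 11.3% of features. They were Col1a1 and Col5a1 of the fibrillar collagens, Col6a1, Col6a2, Col6a5, Col16a1 and Col18a1, and the laminin chains Lama2, Lama3, Lamb2 and Lamc3. None of the 6 collagen IV chains was among them. By class, a fitted fold change above 0 was seen in 5 of 6 collagen VI chains, all 4 zone collagens, all 3 laminin beta chains, 4 of 5 alpha chains, 5 of 6 collagen IV chains and 7 of 10 fibrillar collagens. It was also seen in 4 of 7 fibril-associated, 2 of 3 short-chain and all 4 transmembrane collagens, beside 14539 of all 36572 features.

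Summed markers of somatic cells and germ cells were read in the same libraries. Sertoli cell markers reached 1109 to 1600 CPM in MUT inputs and 983 to 1153 CPM in WT inputs. Vessel endothelium markers were at 37.4 to 48.7 CPM in MUT and 25.02 to 34.7 CPM in WT, and Leydig cell markers at 315 to 533 CPM in MUT and 265 to 362 CPM in WT. Fibroblast markers were at 170.1 to 366 CPM in MUT and 209 to 238 CPM in WT, and myoid markers at 146 to 295 CPM in MUT and 211 to 251 CPM in WT. Germ cell markers were at 2233 to 2685 CPM in MUT and 2897 to 3530 CPM in WT. Of the 8 germ cell markers, 3 had a fitted log2 fold change above 0 in MUT and 5 below. The genotypes were apart for endothelium and germ cells and overlapped for the other lists. None of the genes on these lists was at 0 throughout a genotype's inputs, and their part in the result was not tested.

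**Figure D2:**
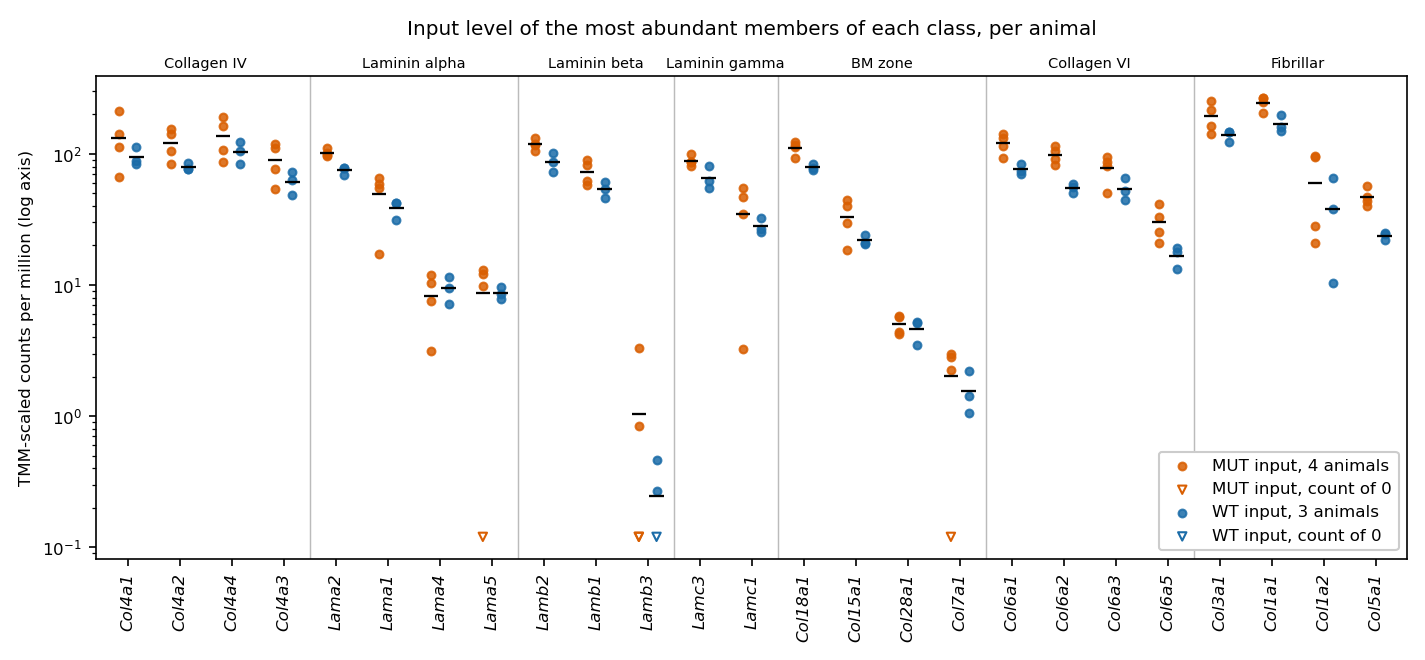
Input level (CPM, log axis) of the most abundant members of the basement membrane, collagen VI and fibrillar classes, up to 4 a class, with 1 member not drawn. Points are animals, MUT left of WT, bars are means, and open triangles at the bottom mark a count of 0. Col5a1, Col6a2 and Col18a1 separate the genotypes, while Col4a1 and Col1a2 overlap.

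Laminin alpha chains carry the sites that cells bind. Lama2, the alpha chain best known from muscle, measured 100.8, 96.6, 110.0 and 97.9 CPM in MUT inputs, against 68.9, 78.0 and 78.4 CPM in WT inputs. The genotypes did not overlap, and the log2 fold change was 0.43 ± 0.11 (SE; edgeR unadjusted p = 0.00474, adjusted p = 0.347). Lama3, the alpha chain of an epidermal laminin, measured 9.53, 10.4, 8.75 and 5.95 CPM in MUT inputs, against 2.57, 2.53 and 2.01 CPM in WT inputs. All MUT inputs were higher at a low level, with a log2 fold change of 1.87 ± 0.69 (edgeR unadjusted p = 0.0272, adjusted p = 0.589). Lama1, the alpha chain of early embryonic basement membrane, measured 54.5, 17.1, 59.2 and 65.9 CPM in MUT inputs, against 42.2, 31.2 and 42.5 CPM in WT inputs, and MUT animal 69 was lowest. Lama4, known from vessel walls, was at 3.15 to 11.9 CPM in MUT and 7.19 to 11.6 CPM in WT, and Lama5, a widespread epithelial chain, at 0 to 13.0 CPM in MUT and 7.77 to 9.72 CPM in WT.

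Lamb2, the beta chain of neuromuscular and kidney basement membranes, measured 119, 105, 117 and 132 CPM in MUT inputs, against 102, 72.1 and 87.3 CPM in WT inputs. The log2 fold change was 0.44 ± 0.15 (edgeR unadjusted p = 0.0180, adjusted p = 0.481). Lamc3, a gamma chain outside the common laminins, measured 80.7, 86.7, 86.6 and 99.7 CPM in MUT inputs, against 80.5, 55.1 and 61.8 CPM in WT inputs. Its groups did not overlap, but MUT 12 and WT 17 nearly touched (0.43 ± 0.16 on the log2 scale, edgeR unadjusted p = 0.0298, adjusted p = 0.609). The beta and gamma chains of most laminins overlapped between genotypes, with Lamb1 at 57.5 to 89.9 CPM in MUT and 46.2 to 61.4 CPM in WT. Lamc1 measured 55.2, 3.24, 46.6 and 34.5 CPM in MUT inputs, against 32.5, 25.3 and 26.5 CPM in WT inputs, and MUT animal 69 was far below the rest. Lamb3, a partner of Lama3 in the epidermal laminin, was low, at 0 to 3.32 CPM in MUT and 0 to 0.466 CPM in WT.

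Col4a1 measured 66.2, 113, 142 and 211 CPM in MUT inputs, against 83.0, 87.8 and 112 CPM in WT inputs. MUT 12 was the lowest of the 7 animals, while MUT 93 and 94 were above every WT. Its partner Col4a2 measured 105, 84.3, 142 and 153 CPM in MUT inputs, against 76.2, 76.2 and 84.5 CPM in WT inputs, with a log2 fold change of 0.62 ± 0.21 (edgeR unadjusted p = 0.02001, adjusted p = 0.508). Col4a3 and Col4a4, a pair known from the kidney glomerulus, were at 54.0 to 119 CPM in MUT and 48.7 to 72.0 CPM in WT for Col4a3, and at 86.1 to 192 CPM in MUT and 83.2 to 123 CPM in WT for Col4a4. Col4a6, one of the X-linked pair, measured 0, 4.48, 2.72 and 8.82 CPM in MUT inputs, against 6.91, 6.06 and 7.98 CPM in WT inputs, and animal 12 was at 0.

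Col18a1, the zone collagen whose end fragment is endostatin, measured 92.8, 112, 123 and 117 CPM in MUT inputs, against 84.0, 74.9 and 78.4 CPM in WT inputs. The genotypes were apart, with a log2 fold change of 0.49 ± 0.13 (edgeR unadjusted p = 0.00536, adjusted p = 0.347). Its relative Col15a1 was at 18.5 to 44.3 CPM in MUT and 20.5 to 24.1 CPM in WT. Col7a1, the collagen of anchoring fibrils, was at 0 to 2.99 CPM in MUT and 1.05 to 2.19 CPM in WT and Col28a1 at 4.24 to 5.85 CPM in MUT and 3.50 to 5.21 CPM in WT.

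Collagen VI is a beaded filament next to basement membranes, built from Col6a1, Col6a2 and a further chain. Col6a1 measured 92.3, 114, 132 and 141 CPM in MUT inputs, against 83.5, 74.4 and 70.5 CPM in WT inputs, a log2 fold change of 0.66 ± 0.17 (edgeR unadjusted p = 0.00438, adjusted p = 0.347). Col6a2 measured 115, 82.1, 105 and 91.3 CPM in MUT inputs, against 55.8, 59.4 and 50.3 CPM in WT inputs, and its log2 fold change of 0.83 ± 0.15 had the smallest p of the members (edgeR unadjusted p = 0.000614, adjusted p = 0.337). For both chains the lowest MUT animal was above the highest WT animal. Col6a3, the usual further chain, measured 80.8, 49.9, 95.2 and 86.2 CPM in MUT inputs, against 65.2, 51.7 and 44.3 CPM in WT inputs, where MUT 69 lay within the WT range. Of the chains that can replace it, Col6a5 measured 25.5, 20.9, 33.2 and 41.3 CPM in MUT inputs, against 13.2, 19.3 and 17.8 CPM in WT inputs, with no overlap (0.85 ± 0.29 on the log2 scale, edgeR unadjusted p = 0.0205, adjusted p = 0.515). Col6a4 was at 3.32 to 17.9 CPM in MUT and 11.4 to 13.5 CPM in WT.

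Col1a1, the main chain of collagen I, measured 205, 266, 265 and 246 CPM in MUT inputs, against 149, 197 and 160.4 CPM in WT inputs. The groups stood apart (0.54 ± 0.14 on the log2 scale, edgeR unadjusted p = 0.00509, adjusted p = 0.347). Col5a1, a collagen V chain that regulates fibril width, measured 39.9, 56.6, 43.8 and 46.5 CPM in MUT inputs, against 22.0, 24.5 and 24.8 CPM in WT inputs. Every MUT input was well above the WT inputs, with a log2 fold change of 0.98 ± 0.18 (edgeR unadjusted p = 0.000685, adjusted p = 0.343). Col3a1 measured 164, 142, 216 and 252 CPM in MUT inputs, against 123, 146 and 147 CPM in WT inputs, where MUT 69 fell within the WT range (0.48 ± 0.20 on the log2 scale, edgeR unadjusted p = 0.0470, adjusted p = 0.763).

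Col1a2, the partner chain of Col1a1, scattered within both genotypes and measured 28.1, 21.0, 94.8 and 96.0 CPM in MUT inputs, against 37.7, 10.4 and 65.8 CPM in WT inputs. Col1a2-201, a coding transcript of Col1a2 among others, had 0, 0, 1556 and 2224 counts in MUT inputs, against 467, 172 and 1381 in WT inputs. Coding transcripts together held 96.9% to 100% of the Col1a2 counts in MUT inputs. Col2a1, the cartilage collagen, scattered further and measured 0.276, 31.01, 0.178 and 14.3 CPM in MUT inputs, against 14.2, 8.197 and 8.25 CPM in WT inputs. Both genes overlapped, and animals of 1 genotype differed by more than the genotypes did.

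Among collagens that decorate fibrils, Col16a1 measured 12.6, 17.3, 19.2 and 23.5 CPM in MUT inputs, against 10.8, 9.67 and 12.3 CPM in WT inputs, with every MUT input higher. Col14a1 was at 3.70 to 42.9 CPM in MUT and 10.3 to 11.8 CPM in WT, Col20a1 at 0 to 8.19 CPM in MUT and 3.22 to 3.37 CPM in WT and Col22a1, of tissue junctions, at 6.69 to 10.8 CPM in MUT and 4.97 to 9.05 CPM in WT. Of the short-chain collagens, Col8a2 was at 6.07 to 11.5 CPM in MUT and 4.16 to 6.11 CPM in WT. Col8a1, Col10a1, Col13a1, Col17a1, Col23a1, Col25a1 and Col26a1 reached at most 7.92 CPM in a MUT input and 3.24 CPM in a WT input. The smallest p-values among members lower in MUT were those of Col9a2, Col9a3 and Col4a6, and the lowest was an unadjusted p of 0.243 in edgeR. Col9a2 was at 0 to 0.535 CPM in MUT and 0 to 2.56 CPM in WT and Col9a3 at 0 to 1.47 CPM in MUT and 0.925 to 1.83 CPM in WT.

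The other members overlapped between genotypes in input as well. Col4a5, the X-linked partner of Col4a6, was at 23.1 to 46.0 CPM in MUT and 20.8 to 24.0 CPM in WT, and Col6a6 at 0 to 8.35 CPM in MUT and 1.27 to 2.37 CPM in WT. Of the remaining fibrillar collagens, Col5a2, a collagen V chain, was at 0 to 26.5 CPM in MUT and 11.5 to 14.3 CPM in WT and Col5a3 at 0 to 3.88 CPM in MUT and 1.64 to 2.78 CPM in WT. Col11a1 and Col11a2, of cartilage fibrils, were at 1.14 to 7.42 CPM in MUT and 4.21 to 6.40 CPM in WT for Col11a1, and at 0 to 2.44 CPM in MUT and 0.771 to 1.44 CPM in WT for Col11a2. Col27a1 was at 0.146 to 5.28 CPM in MUT and 0.758 to 1.93 CPM in WT, and the fibril-associated Col12a1 at 0.268 to 12.0 CPM in MUT and 3.70 to 5.21 CPM in WT.

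Leaving out each animal in turn left 0 members called by edgeR in input, while 7 to 19 had a higher level in MUT and 0 a lower one at an unadjusted p under 0.05, beside 0.808% to 2.55% of features higher and 3.52% to 9.68% lower. Without animals 12 and 69, an unadjusted p under 0.05 was found for 24 members higher in MUT and 0 lower, beside 5.32% and 8.92% of features, with a median log2 fold change of 0.69 beside -0.07 over all features, and again 0 were called.

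Depletion in IP was examined within each genotype, with the animal as a block. Col4a2, Col4a3, Col4a4, Col6a1, Col6a2, Col1a1, Col15a1, Col18a1 and Lamc3 fell in IP in both genotypes. edgeR called Lamb1 in neither, while DESeq2 called it lower in MUT, and with at least 10 counts in every library edgeR called it lower in both. Col2a1, Col22a1, Col25a1 and Lama5 rose in WT IPs. In MUT, 45 members were tested, and edgeR called 13 lower and 0 higher in IP than in input, beside 3.56% and 6.35% of 22918 features. At an unadjusted p under 0.05, 20 were lower and 1 higher in MUT, beside 11.3% and 11.8% of features, and DESeq2 called 26 lower and 3 higher, beside 29.9% and 13.9%. In WT, 51 were tested, and edgeR called 12 lower and 4 higher, beside 6.37% and 13% of 34864 features. DESeq2 called 27 lower and 5 higher in WT, beside 31.1% and 22.9%. The members' median log2 fold change was -2.76 in MUT and -1.67 in WT, beside -0.63 and -0.60 over all features. Without the animal as a block the medians were -1.86 in MUT and -1.48 in WT, beside -0.35 and -0.39.

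The number of calls changed with the animals in the fit. In WT, edgeR called 0 members and 0 features of any kind without WT 121 or without WT 140. Without WT 17 it called 14 members, beside 2666 features higher and 1088 lower of 37065. With 1 WT animal left out, the log2 fold change in WT stayed at -2.03 to -1.90 for Col18a1, -2.27 to -1.83 for Lamc3, -1.87 to -1.48 for Col6a2, 2.78 to 3.04 for Col2a1 and 1.33 to 1.73 for Col22a1. In MUT edgeR called 11 members without animal 12, beside 1004 features higher and 581 lower of 25355. It called 7 without 69, beside 910 higher and 476 lower of 25923, and 6 without 93, beside 657 and 349 of 22763. Without 94 it called 5, beside 636 and 325 of 22194. Without both 12 and 69 it called 0 members, beside 6 features higher and 6 lower of 31795. The lost calls there say little on single members. At an unadjusted p under 0.05, 14 members were lower and 4 higher without WT 121, beside 8.71% and 14% of features, and 15 lower and 4 higher without WT 140, beside 10.1% and 15.4%. In MUT without both 12 and 69, 17 were lower and 0 higher, beside 8.01% and 8.48%.

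**Figure D3:**
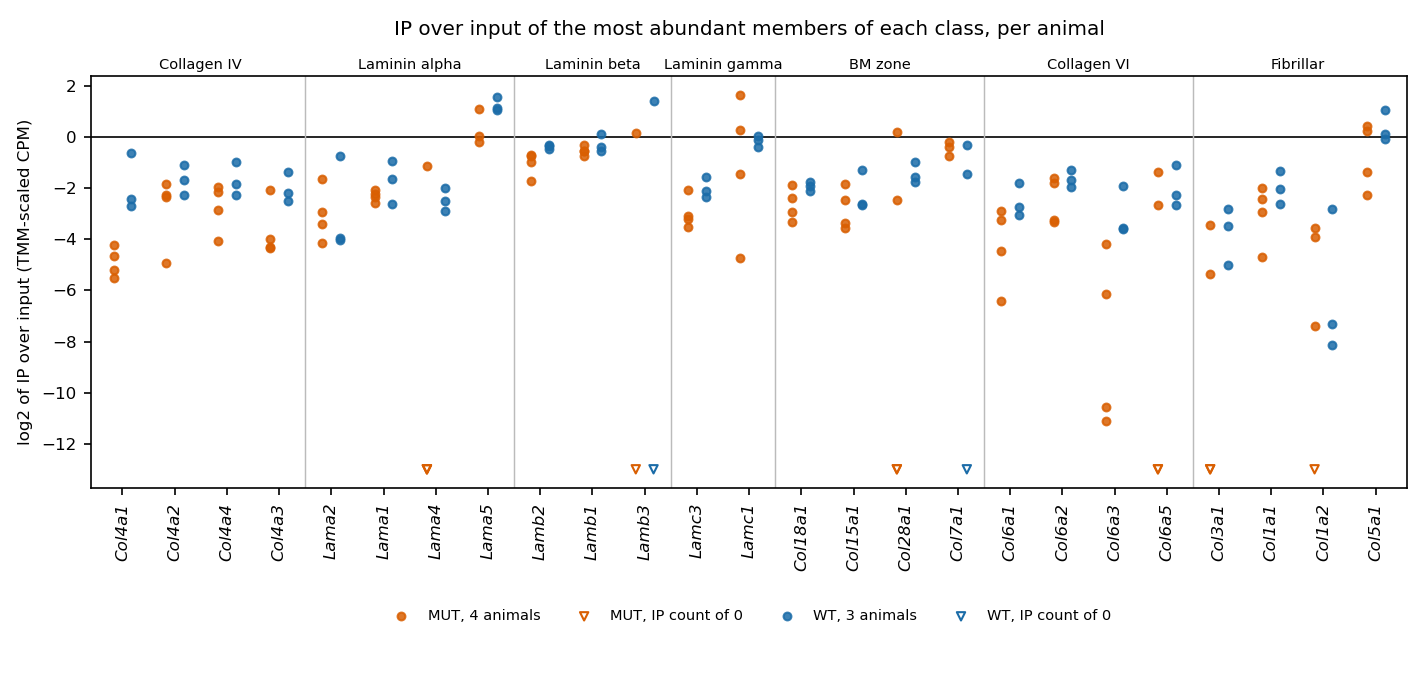
IP over input (log2 of the ratio of CPM in the same animal) of the members shown for input levels. Points are animals, MUT left of WT, and open triangles mark an IP count of 0. Animals with an input count of 0 are not drawn. Col4a1 lies lower in every MUT animal, at ratios of 0.0216 to 0.0535, than in any WT animal, while Lamb1 lies between 0.606 and 1.08.

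Ratios are IP over input CPM of the same animal, scaled within each genotype. For Col4a1 the ratio was 0.0393, 0.0216, 0.0535 and 0.0275 in MUT, against 0.657, 0.186 and 0.154 in WT. MUT animals lay below WT animals without overlap, and the log2 fold change was -4.90 ± 0.30 in MUT (edgeR adjusted p = 0.00122) and -1.93 ± 0.51 in WT (adjusted p = 0.0799). For Col4a2 it was 0.0333, 0.278, 0.199 and 0.209 in MUT, against 0.469, 0.208 and 0.316 in WT, where MUT 12 alone was far below the rest, and edgeR called it lower in both genotypes (-2.76 ± 0.59 in MUT, adjusted p = 0.0463, and -1.67 ± 0.27 in WT, adjusted p = 0.0252). Col4a3 (-3.70 ± 0.48 in MUT, -2.02 ± 0.27 in WT) and Col4a4 (-2.74 ± 0.40 in MUT, -1.69 ± 0.30 in WT) were called lower in both as well. Counting protein-coding transcripts alone, edgeR called Col4a1 and Col4a2 in WT and neither of them in MUT. For Col4a1 that is the reverse of the main fit, and the alternative was chosen after seeing the data.

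Laminin chains did not share a ratio. For Lamb1 it was 0.692, 0.800, 0.606 and 0.692 in MUT, against 0.766, 1.08 and 0.692 in WT, and edgeR called it in neither genotype. For Lamb2 it was 0.507, 0.303, 0.622 and 0.593 in MUT, against 0.808, 0.787 and 0.724 in WT, and the log2 fold change was -1.03 ± 0.22 in MUT (edgeR adjusted p = 0.0391) and -0.37 ± 0.09 in WT (adjusted p = 0.0652). As a share of the members' counts, the beta chains took 22.1 ± 2.94% in MUT IPs, against 8.96 ± 0.640% in MUT inputs, and 18.2 ± 2.43% in WT IPs, against 9.32 ± 1.53% in WT inputs (SD, n = 4 and 3).

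For Lamc3 the ratio was 0.118, 0.0882, 0.239 and 0.107 in MUT, against 0.341, 0.234 and 0.198 in WT, and it was called lower in both genotypes (-2.97 ± 0.32 in MUT, edgeR adjusted p = 0.00406, and -1.99 ± 0.20 in WT, adjusted p = 0.00999). For Lamc1 it was 0.364, 3.14, 0.0372 and 1.22 in MUT, against 0.912, 0.769 and 1.02 in WT, so WT animals stayed near 1 and MUT animals lay on both sides. Lamc1-201, a coding transcript of Lamc1 among others, had 538, 285, 0 and 1015 counts in MUT IPs, against 1270, 0, 1033 and 970 in MUT inputs. The count of this transcript was 0 in the IP of animal 93 and in the input of animal 69. Coding transcripts together held 90.7% to 100% of the Lamc1 counts in MUT inputs and 0% to 96.9% in MUT IPs.

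For Lama2 the ratio was 0.317, 0.0570, 0.0954 and 0.132 in MUT, against 0.592, 0.0651 and 0.0616 in WT, with WT 17 far above the other WT animals. edgeR called it lower in MUT (-3.03 ± 0.45, adjusted p = 0.0110) and not in WT (-2.97 ± 0.88, adjusted p = 0.104). For Lama1 it was 0.239, 0.212, 0.169 and 0.195 in MUT, against 0.528, 0.323 and 0.161 in WT, and the call was again in MUT alone (-2.31 ± 0.32, edgeR adjusted p = 0.00880, against -1.72 ± 0.40 in WT, adjusted p = 0.0586). Whether the genotypes differ was tested as an interaction, given further on. Lama4 had 0, 163, 0 and 0 counts in MUT IPs, against 80, 326, 168 and 310 in MUT inputs, and 66, 18 and 32 in WT IPs, against 275, 185 and 246 in WT inputs, where edgeR called it lower (-2.46 ± 0.45, adjusted p = 0.0343). Lama5 went the other way in WT, with 396, 317 and 553 counts in WT IPs, against 201, 200 and 252 in WT inputs (1.25 ± 0.23, edgeR adjusted p = 0.0338). In MUT, Lama5 had 292, 344, 626 and 356 counts in IPs, against 0, 356, 221 and 361 in inputs.

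For Col18a1 the ratio was 0.101, 0.131, 0.270 and 0.191 in MUT, against 0.231, 0.265 and 0.295 in WT, and the log2 fold change was -2.63 ± 0.29 in MUT and -1.93 ± 0.13 in WT (edgeR adjusted p = 0.00468 and 0.00642). Col15a1 was called lower in both too (-2.81 ± 0.60 in MUT and -2.21 ± 0.40 in WT). For Col6a1 the ratio was 0.0117, 0.0461, 0.134 and 0.106 in MUT, against 0.285, 0.122 and 0.152 in WT, lowest in MUT 12, and edgeR called it lower in both (-4.17 ± 0.71 in MUT, adjusted p = 0.0254, and -2.52 ± 0.30 in WT, adjusted p = 0.0132). Col6a2 fell likewise (-2.49 ± 0.40 in MUT and -1.64 ± 0.18 in WT). Col6a3 had 1, 1, 40 and 136 counts in MUT IPs, against 2052, 1370, 2134 and 2579 in MUT inputs, and 386, 79 and 73 in WT IPs, against 1548, 1330 and 1148 in WT inputs. edgeR called it lower in WT (-3.03 ± 0.45, adjusted p = 0.0212) but not in MUT (adjusted p = 0.0743).

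For Col1a1 the ratio was 0.0383, 0.131, 0.251 and 0.186 in MUT, against 0.394, 0.162 and 0.243 in WT, and it was called lower in both (-2.98 ± 0.52 in MUT, edgeR adjusted p = 0.0302, and -2.004 ± 0.29 in WT, adjusted p = 0.0195). Col3a1 had 0, 401, 156 and 0 counts in MUT IPs, against 4153, 3905, 4834 and 7543 in MUT inputs, and 399, 85 and 252 in WT IPs, against 2926, 3753 and 3800 in WT inputs. edgeR called it lower in WT (-3.73 ± 0.52, adjusted p = 0.0185; in MUT adjusted p = 0.211). Its main transcript Col3a1-201 had 0 counts in all 4 MUT IPs, against 238, 14 and 219 in WT IPs. Coding transcripts together held 3.04% to 71.6% of the Col3a1 counts in the MUT IPs that had any, and 16.1% to 93.8% in WT IPs. Not all fibrillar collagens fell: the ratio of Col5a1 was 0.392, 0.208, 1.19 and 1.35 in MUT, against 2.07, 1.08 and 0.939 in WT, on both sides of 1 in each genotype.

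Col2a1 was the clearest of the 4 members called higher in WT IPs, with 1841, 1290 and 1378 counts in WT IPs, against 338, 211 and 214 in WT inputs (2.90 ± 0.19, edgeR adjusted p = 0.00634). In MUT it had 1115, 1421, 583 and 141 counts in IPs, against 7, 851, 4 and 429 in inputs, so that IP was below input in animal 94 alone. Col22a1 had 582, 1109, 733 and 717 counts in MUT IPs, against 170, 197, 241 and 283 in MUT inputs, and 469, 439 and 282 in WT IPs, against 118, 233 and 143 in WT inputs. IP was above input in all 7 animals, and edgeR called it in WT (1.61 ± 0.27, adjusted p = 0.0280) and not in MUT (1.66 ± 0.56, adjusted p = 0.146). Col25a1, a transmembrane collagen known from neurons, had 412, 92, 410 and 352 counts in MUT IPs, against 0, 0, 12 and 63 in MUT inputs, and 77, 173 and 204 in WT IPs, against 7, 14 and 27 in WT inputs, where it was called higher (3.64 ± 0.56, edgeR adjusted p = 0.0226).

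Markers of somatic cells were low in IP as well. Sertoli cell markers summed to 187 to 315 CPM in MUT IPs, against 1182 to 1651 CPM in MUT inputs, and to 249 to 401 CPM in WT IPs, against 839 to 975 CPM in WT inputs. Myoid markers summed to 46.2 to 85.7 CPM in MUT IPs, against 155 to 304 CPM in MUT inputs, and to 79.2 to 119 CPM in WT IPs, against 180.2 to 213 CPM in WT inputs. Of 7 vessel endothelium markers, 4 were at 0 in all MUT IPs and 0 were at 0 in all WT IPs. They summed to 0 to 11.9 CPM in MUT IPs, against 39.7 to 50.2 CPM in MUT inputs. In WT they summed to 10.5 to 16.5 CPM in IPs, against 21.4 to 29.8 CPM in inputs. edgeR called 0 of 5 tested lower in MUT and 0 of 7 in WT, beside 3.56% and 6.37% of features. MUT IPs had fewer gene symbols of any kind above 0, as given above. Which cells the members' IP counts came from was not tested.

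Ribosome-associated RNA was then compared between genotypes. Lamb1 and Col22a1 were higher and Col4a1 was lower in MUT IPs by their levels, but none passed the adjusted test. Of 47 members tested, 27 had a fitted log2 fold change above 0, with a median of 0.09, beside -0.15 over all 26186 features. Without WT 121, 20 of 49 were above 0, with a median of -0.18. edgeR called 0 members, beside 0.00382% of features in each direction. At an unadjusted p under 0.05, 2 were higher and 3 lower, beside 1.34% and 10.3% of features, and DESeq2 called 1 higher and 3 lower, beside 1.77% and 8.63%. For 2 tested members every MUT IP was above every WT IP, and for 4, Col2a1, Col4a1, Col6a4 and Col23a1, every MUT IP was below, beside 1.96% and 14.5% of features.

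Lamb1 measured 41.8, 52.6, 47.1 and 58.1 CPM in MUT IPs, against 36.9, 38.2 and 31.4 CPM in WT IPs. The genotypes did not overlap (0.49 ± 0.19 on the log2 scale, edgeR unadjusted p = 0.0327, adjusted p = 0.317). Col22a1 measured 22.1, 38.8, 23.6 and 23.7 CPM in MUT IPs, against 16.3, 18.0 and 12.3 CPM in WT IPs, with animal 69 highest (0.80 ± 0.33 on the log2 scale, edgeR unadjusted p = 0.0416, adjusted p = 0.374). Col4a1 measured 2.74, 2.59, 7.17 and 5.41 CPM in MUT IPs, against 42.8, 12.5 and 14.5 CPM in WT IPs, and every MUT IP was lower (-2.38 ± 0.66 on the log2 scale, edgeR unadjusted p = 0.00787, adjusted p = 0.114). Its partner Col4a2 measured 3.69, 24.9, 26.8 and 30.0 CPM in MUT IPs, against 28.0, 12.2 and 22.3 CPM in WT IPs, and the genotypes overlapped. Among low members, Col6a4 had 1, 0, 0 and 0 counts in MUT IPs, against 94, 80 and 22 in WT IPs, and Col23a1 had 0, 0, 0 and 0 counts in MUT IPs, against 31, 20 and 39 in WT IPs.

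**Figure D4:**
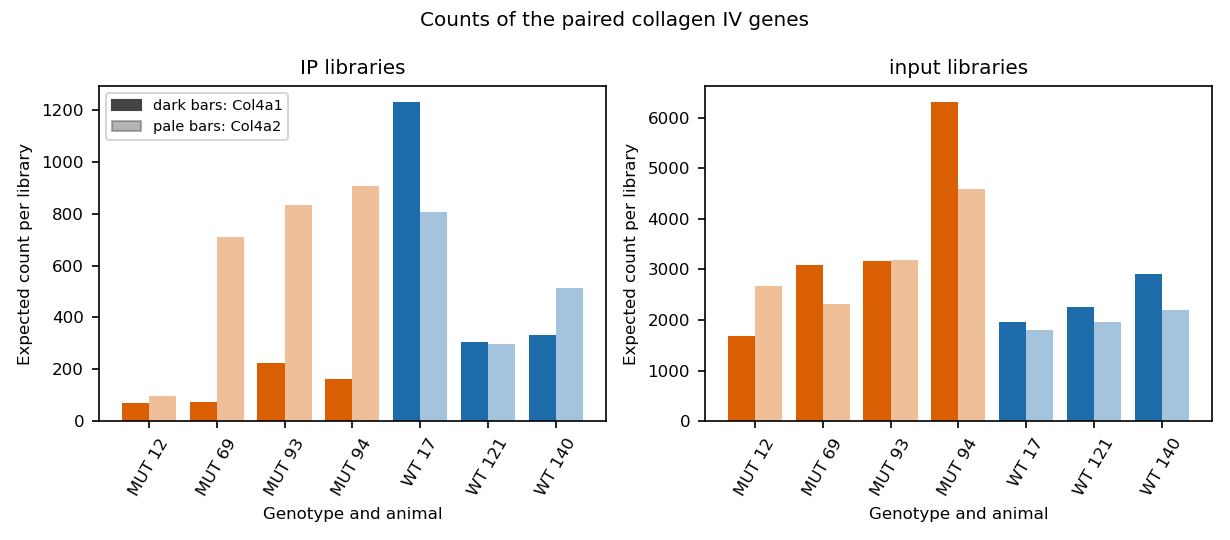
Expected counts of Col4a1 and Col4a2 (dark and pale bars) in each animal's IP and input, MUT in orange and WT in blue. In MUT IPs Col4a1 counts were 72, 74, 223 and 164, below those of Col4a2 in each. The IP of WT 140 also had fewer counts of Col4a1 (334) than of Col4a2 (513). In inputs Col4a1 was above Col4a2 in every WT animal and in MUT 69 and 94, while MUT 12 had 1680 counts of Col4a1 and 2677 of Col4a2.

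Within 1 library, the ratio of Col4a1 to Col4a2 counts does not depend on scaling. It was 0.747, 0.104, 0.267 and 0.180 in MUT IPs, against 1.53, 1.03 and 0.652 in WT IPs. In inputs it was 0.628, 1.34, 0.996 and 1.37 in MUT, against 1.09, 1.15 and 1.33 in WT. The ratio was lower in IP than in input in MUT 69, 93 and 94, and higher in MUT 12. Col4a1-201, a coding transcript of Col4a1 among others, had 0 counts in all 4 MUT IPs, against 736, 265 and 285 in WT IPs. It had 1462, 2634, 1246 and 5379 counts in MUT inputs, against 1860, 1680 and 2754 in WT inputs. All 74 Col4a1 counts in the IP of MUT 69 were on coding transcripts, and 0 of those in the other 3 MUT IPs, against 62.1% to 94.4% in WT IPs. In inputs the share was 39.3% to 92.3% in MUT and 75.8% to 95.9% in WT. RSEM divides reads among the transcripts of a gene, so an estimate of 0 for 1 transcript does not show its absence.

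The genotype difference in ribosome association, the IP to input ratio, was tested as an interaction in the 35 members that passed the filter and were above 0 in every input. Of these, 28 had a fitted difference below 0, with a median of -0.74 on the log2 scale, beside -0.29 over all 16014 features. edgeR called 0 members, beside 0% of features in either direction. At an unadjusted p under 0.05, 0 members were higher and 3 lower, beside 0.475% and 6.74% of features, and DESeq2 called 0 higher and 3 lower, beside 0.212% and 5.9%. Col4a1 had the smallest p, with a difference of -2.66 ± 0.57 (edgeR unadjusted p = 0.00193, adjusted p = 0.443). Col6a3 had a difference of -3.90 ± 1.59 (edgeR unadjusted p = 0.0425, adjusted p = 0.667), and the other was Col6a4. For Lama2 the difference was 0.26 ± 0.96, for Col22a1 0.35 ± 0.55 and for Col1a2 0.62 ± 2.21, the smallest p-values in the other direction, with signs that turned in some alternatives for each, and all at an unadjusted p of at least 0.547 in edgeR.

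Partners of these chains were read from a list of basement membrane proteins, collagen-modifying enzymes, interstitial matrix, receptors and proteases. In input 84 were tested, of which 61 had a fitted log2 fold change above 0, beside 14539 of all 36572 features. The median of the 84 was 0.29, beside -0.18 over all features. edgeR called 0 of them, beside 0.00547% of features higher and 0.00273% lower. An unadjusted p under 0.05 was found for 13 higher and 0 lower, beside 1.6% and 4.76% of features. Sparc, a collagen-binding glycoprotein, measured 531, 564, 593 and 615 CPM in MUT inputs, against 476, 385 and 423 CPM in WT inputs, and the genotypes did not overlap (0.43 ± 0.10 on the log2 scale, edgeR unadjusted p = 0.00291, adjusted p = 0.347). Loxl2, which cross-links collagen IV, measured 25.7, 19.0, 26.7 and 22.6 CPM in MUT inputs, against 14.7, 11.9 and 14.3 CPM in WT inputs. Ddr1, a collagen receptor kinase, measured 27.2, 35.3, 26.1 and 26.5 CPM in MUT inputs, against 16.8, 19.7 and 17.7 CPM in WT inputs, and for both genes every MUT input was higher. The smallest p-values in the other direction were those of P3h2, Tmem38b and P4hb, at an unadjusted p of 0.281, 0.368 and 0.411 in edgeR.

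In WT IPs 85 of these genes were tested against input, and edgeR called 14 higher and 12 lower, beside 13% and 6.37% of 34864 features. Plod1 and Plod3, which hydroxylate lysines of collagen chains in the endoplasmic reticulum, rose in WT IPs by log2 fold changes of 1.96 ± 0.14 and 1.75 ± 0.12 (edgeR adjusted p = 0.00642 for both). Of 26 genes tested for making and cross-linking collagen, 7 were called higher and 2 lower, beside the same shares of features. Their median was 0.05, beside -0.60 over all features. Fn1, fibronectin, was also higher (1.76 ± 0.12). Sparc (-2.70 ± 0.33) and the metalloprotease inhibitors Timp3 (-2.79 ± 0.20) and Timp2 (-1.98 ± 0.18) were called lower.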

How the data were processed

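Total RNA (input) and HA-tagged ribosome RNA (IP) of 4 MUT and 3 WT testes gave 14 libraries. According to the study's methods, stranded paired-end libraries were trimmed, cleared of ribosomal reads and quantified against an expanded testis transcriptome on GRCm38 with RSEM 1.3.3. The authors deposited, per transcript, expected counts (not normalized) and TPM (scaled to transcript length and library). Which strand setting the quantification used is not given in the sources used here, so a gene and an overlapping gene on the other strand may share reads.

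Transcripts were joined to GENCODE M21 symbols, and expected counts were summed per symbol and rounded. Assembled transcripts and the 404 Ensembl transcripts with no match stayed single features, and 92 spike-ins were left out. Each comparison was fitted over all features with edgeR 4.0.16 (R 4.3.3; TMM factors, filterByExpr, robust quasi-likelihood test) and Benjamini-Hochberg adjusted p under 0.05, each on its own libraries. CPM are scaled by the TMM factors of that comparison. The SE printed with a log2 fold change is its absolute value divided by the square root of the F statistic of the edgeR test. It is worked back from the same statistic as the p-value. IP against input and the interaction had the animal as a block, because both libraries came from 1 testis. Deviations of the paired libraries from their group means correlated at 0.0216 to 0.0478 in MUT and 0.0629 to 0.1175 in WT. The fitting code was tested on simulated data.

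Members and lists were chosen with earlier results of these data known. Named were up to 4 members a class by input TPM, up to 3 members a direction by p in each comparison, and up to 3 related genes a direction in input and in WT IP against input. Lama3 and the remaining members were added after their values were seen, and 1 member is not reported here. Alternatives were DESeq2 1.42.0, other factors, filters, features and thresholds, limma 3.58.1 on log2(TPM + 0.1) or log2(TPM + 1), no rounding, no block, and leaving out animals.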

Additional observations from a re-analysis of the deposited data

Results flagged for a closer look

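Single MUT animals stood far from the other 3 of their group in 16 of 115 groups of 4 values, by a rule set to flag about 1 in 20, or 5.8. Where the other 3 animals were at 0, a single value above 0 was flagged at any level, even 0.0380 CPM. Col4a3, Col26a1, Lama4 and Col6a4 were flagged in both level and ratio. The 16 flags therefore cannot be read as an excess over the 5.8. Of the 16 flags, 11 were high levels in IP and 5 high ratios of IP to input.

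In IP level, animal 93 was high for Col4a3, at 25.1 CPM against 2.83 to 5.64 CPM in the other MUT IPs, for Lama5, at 20.1 against 11.1 to 12.0 CPM, and for Lamc3, at 19.5 against 8.12 to 9.99 CPM. Col22a1 was highest in animal 69, at 38.8 CPM against 22.1 to 23.7 CPM. The remaining members were at 0 in the other 3 MUT IPs. They were Col26a1 in animal 93 (1.83 CPM), Col20a1 (5.84 CPM) and Lama4 (5.70 CPM) in animal 69, Col17a1 (3.83 CPM) and Col13a1 (2.74 CPM) in animal 94, and Col8a1 and Col6a4 in animal 12, each at 0.0380 CPM, which is 1 count.

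In the IP to input ratio, animal 93 was high for Col4a3, at 0.238 against 0.0494 to 0.0639 in the other MUT animals, for Col28a1, at 1.14 against 0 to 0.181, and for Col26a1, at 21.7 against 0. Lama4 reached 0.452 in animal 69 and Col6a4 reached 0.00488 in animal 12, where the other animals were at 0.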

How the results depend on the processing

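Over 76 gene results and 1150 values under the alternatives, 955 kept their direction and side of the threshold, 121 lost the call, 65 gained one and 9 turned direction. The 9 were all among the 3 positive genotype differences named for the IP to input ratio. Lama2 was at -0.26 without the replicate block and -0.51 to 1.14 with 1 animal left out, Col1a2 at -0.66 to 2.11 with 1 animal left out, and Col22a1 at -0.084 without animals 12 and 69. Over all members tested, the fitted sign turned in at least 1 alternative for 22 of 52 in input, 9 of 51 in WT IP against input, 7 of 45 in MUT IP against input, 28 of 47 between IPs and 18 of 35 in the interaction. In input, limma turned 13 of 52 on log2(TPM + 0.1) and 8 on log2(TPM + 1), Col16a1 among both. Under DESeq2, 10 members were called in input, 32 in WT IP against input, 29 in MUT IP against input, 4 between IPs and 3 in the interaction, where edgeR called 0, 16, 13, 0 and 0. DESeq2 kept all 16 WT and all 13 MUT calls. For WT IP against input, edgeR called 3 members at an adjusted p under 0.01, 25 with at least 10 counts in every library and 27 with annotated symbols alone, and for MUT it called 5 at an adjusted p under 0.01 and 0 without animals 12 and 69. Leaving out each animal in turn gave 0 to 14 calls in WT and 5 to 11 in MUT, beside the counts of features given above. It gave 0 in each of the other comparisons. Without the replicate block, 20 members were called in WT, beside 5681 features higher and 4589 lower of 34864. In MUT 16 were called, beside 1934 features higher and 1787 lower of 22918. In the interaction 2 were called, beside 2 features higher and 386 lower of 16014. Counting protein-coding transcripts alone, an alternative chosen after seeing the data, gave 0 in input, 18 in WT, 11 in MUT, 0 between IPs and 0 in the interaction. For WT that was beside 4173 features higher and 1934 lower of 34434, and for MUT beside 1059 higher and 615 lower of 22136. Col4a1 was then called in WT and not in MUT, the reverse of the main fit. Where an alternative moved a count, the cause was not tested.

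MUT IPs held 26589188 to 30829048 counts and 30 to 40 members above 0, against 25037235 to 30871330 counts and 48 to 52 members in WT IPs, and a count of 0 does not show absence. Without WT 121 or WT 140, edgeR called 0 features of any kind in WT IP against input, so the lost calls there do not bear on single members.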
